A study of Mus musculus with 3 samples.

Results

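Upper dermal fibroblasts of mouse back skin at the embryonic stage E16.5 were selected cell by cell from genes known to differ between upper and deep dermis. A cell was taken when it had no molecule of Cdh5, Ptprc, Sox10, Trp63 or Sox18, which mark endothelial, immune, neural crest and epidermal cells and, for Sox18, endothelial and some papilla precursor cells, and when U - D was at least 3. U is the number of upper genes with at least 1 molecule among Wif1, Itih5, Pth1r, Twist2, Egfl6 and Wisp1, and D is the same number for the deep genes Dpt, Mfap4, Ly6a, Clec3b, Agtr2 and Aspn. The rule found 1611 cells, which were 30.9% (29.7 to 32.2) of the 5208 cells of the E16.5 library and 56.5% (54.6 to 58.3) of the 2852 cells with the same 5 zeros. The other 1241 cells with those zeros were the reference, and the 61 of them with D - U of at least 3 are called deep-rule cells. Of the 1611 members, 880 had no molecule of Top2a, a topoisomerase of dividing cells, and 731 had at least 1.

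Dissociated back skin of C57BL/6 mice was profiled by droplet 3' RNA sequencing at E13.5, E16.5 and P0, with 1 library for each stage and skin of several male animals in each. No animal carried a transgene or treatment in the labels. E13.5 and E16.5 skin was digested with trypsin/EDTA and P0 skin with collagenase IV, so that stage and digestion cannot be told apart. Since cells of 1 library are not replicates, none of the differences below could be checked in replicates, and statistical tests were not applied.

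The dermis of the embryo starts as a loose mesenchyme and is later divided into a papillary layer under the epidermis and a deeper reticular and hypodermal layer. Upper dermal fibroblasts are known to receive Wnt signals from the overlying epidermis, to carry high Wnt/β-catenin activity and to be the cells from which dermal condensates, the precursors of the hair follicle's dermal papilla, arise. Lef1 and Tcf7 are the transcription factors through which β-catenin acts, and Axin2, Nkd1, Dkk1 and Wif1 are inhibitors of the pathway, the first 3 of which are known to be switched on by it.

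All values are unique molecular identifiers (UMIs, 1 per captured transcript) summed over the cells of a group and scaled to counts per 1000000 of that group (CPM). A difference is the log2 ratio of 2 groups after 10 was added to each CPM, with a 95% interval from exact Poisson limits. Intervals of sums and of shares cover counting error only. A gene is called higher or lower when the difference is at least 2-fold and its interval leaves out 0, among genes with at least 50 UMIs in both groups together and without the 18 genes of the rule. The members held 16838596 UMIs with a median of 9687 per cell, the reference 11180 and the deep-rule cells 10403. The E16.5 library held 66239195 UMIs. Doublets were called for 84 of its cells, 3 of them members. Of the members, 20 carried a cell barcode that also occurred in another library.

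The 12 scored genes chose the cells, so their levels are a description. Twist2, a transcription factor of dermal mesenchyme, had a UMI in 99.9% of members and a level of 1274 CPM, with 581 CPM in the reference and 302 CPM in deep-rule cells. Pth1r, the receptor of parathyroid hormone-related protein, was found in 99.3% of members at 678 CPM. Wif1, which binds Wnt ligands outside the cell, was found in 92.3% of members at 426 CPM, with 99.9 CPM in the reference and 6.29 CPM in deep-rule cells. Wisp1, a matricellular protein, was the upper gene found least often, in 56.4% of members. Most members therefore reached the score through 5 or 6 of the upper genes, which 758 and 699 members had. Deep genes were not absent from the members. A total of 276 members had none of them, and the deep genes found most often were Dpt in 55.9% and Mfap4 in 42.0% of members, while Ly6a was found in 0.683% and Clec3b in 1.37%.

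The fibroblast identity of the members was checked with markers that the rule did not use. The 8 dermal markers (Col1a1, Col1a2, Col3a1, Lum, Pdgfra, Dcn, Twist1 and Prrx1) summed to 24687 CPM in members, 28648 CPM in the reference and 33569 CPM in deep-rule cells, against 2894 CPM in endothelial cells of the same library. Endothelial cells here are all cells of the library with a UMI of both Cdh5 and Pecam1, and keratinocytes those with both Trp63 and Krt14. Keratinocyte markers summed to 527 CPM in members and 1001 CPM in the reference, with 10664 CPM in the library's keratinocytes. Pericyte markers summed to 80.9 CPM in members, 636 CPM in the reference and 401 CPM in deep-rule cells. Immune markers summed to 96.3, 483 and 53.5 CPM and muscle markers to 31.5, 118 and 83.4 CPM in the same order. Of the pericyte, immune, muscle and keratinocyte markers none was at 0 in the members. The reference is therefore a mixture, in which 935 of 1241 cells had at least 10000 CPM of Col1a1, Col1a2 and Col3a1 together, and deep-rule cells also held pericyte marker UMIs. By that collagen limit 193 of the 1179 keratinocytes were collagen-rich too, so that group is not pure. Erythroid genes summed to 5199 CPM in members and 10722 CPM in deep-rule cells. However, 14 members held 79.4% and 1 deep-rule cell held 90.8% of those UMIs, and the median cell was at 1061 and 990 CPM, so the levels of adult globins are not compared between these groups.

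The label of upper dermis rests on gene expression, since dissociated cells have no position. Of a list of 10 papillary fibroblast genes, 7 had enough UMIs for the comparison with deep-rule cells. Crabp1, a retinoic acid binding protein, was at 1730 CPM in members and 242 CPM in deep-rule cells (log2 difference 2.79, 2.57 to 3.01). Tcf4, a basic helix-loop-helix factor, differed by 1.60 (1.41 to 1.80), from 979 to 316 CPM, and Col23a1, a membrane collagen, was at 62.5 and 25.2 CPM. The Col23a1 level rests in part on 107 members without Top2a that are called dermal condensate-like below. It was at 242 CPM in those and at 41.5 CPM in the other members without Top2a. Lrig1, a receptor inhibitor of papillary fibroblasts, was at 49.6 and 28.3 CPM and did not reach 2-fold. Dpp4, a surface peptidase used to mark papillary fibroblasts, went the other way, at 5.17 CPM in members and 31.5 CPM in deep-rule cells (log2 difference -1.45, -1.96 to -0.93). It had a UMI in 4.97% of members and 9.84% of deep-rule cells, in 2.38% of endothelial cells and in 7.38% of keratinocytes. The share in members was thus not above that of keratinocytes, and the interval of the deep-rule share (3.70 to 20.2) overlaps that of the members (3.96 to 6.14). By level, 3 papillary genes were called higher and Dpp4 lower, and the cells are called upper dermal by their rule.

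Against deep-rule cells, 247 of 10697 genes were higher in the members (2.31%) and 340 were lower (3.18%). Dkk1, a secreted inhibitor that blocks the Wnt co-receptor (chr19:30545863-30549665, minus strand, mm10), was at 85.3 CPM in members and had 0 UMIs in deep-rule cells. With 3 counts over the deep-rule group as the floor, 4.72 CPM, the level was at least 18.1-fold higher in members. A Dkk1 UMI was found in 623 of 1611 members (38.7%), in 137 of 1241 reference cells (11.0%), in 0 of 61 deep-rule cells (upper limit 5.87%) and in 6.35% of endothelial cells. After each cell was thinned to 3500 UMIs the shares were 21.8%, 3.95%, 0% and 2.12%. Dkk1 thus stood above the endothelial share in members at both depths.

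Trps1, a GATA-type repressor needed for hair, was at 196 CPM in members and 12.6 CPM in deep-rule cells (log2 difference 3.19, 2.57 to 3.74). Runx1, a transcription factor of embryonic dermis and hair follicle, was at 88.0 and 3.15 CPM (2.90, 2.19 to 3.24). Bcl11b, a zinc finger factor of skin and T cells, was at 407 and 56.6 CPM (2.65, 2.24 to 3.07). These 3 regulators were found in 72.1%, 51.2% and 94.2% of members and in 9.84%, 3.28% and 32.8% of deep-rule cells. Cav1, the coat protein of caveolae, was at 484 and 61.3 CPM (2.79, 2.39 to 3.20), and Mme, a surface peptidase, at 109 and 6.29 CPM (2.87, 2.19 to 3.35). Stmn2, a microtubule-binding stathmin best known from neurons, was at 343 and 31.5 CPM (3.09, 2.59 to 3.60). In deep-rule cells 55.0% of the Stmn2 UMIs came from 1 cell, and all Cpne5 UMIs did, so their deep levels rest on few cells. Sfrp5, a secreted Wnt antagonist, was at 75.5 and 3.15 CPM (2.70, 2.00 to 3.05).

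**Figure D1:**
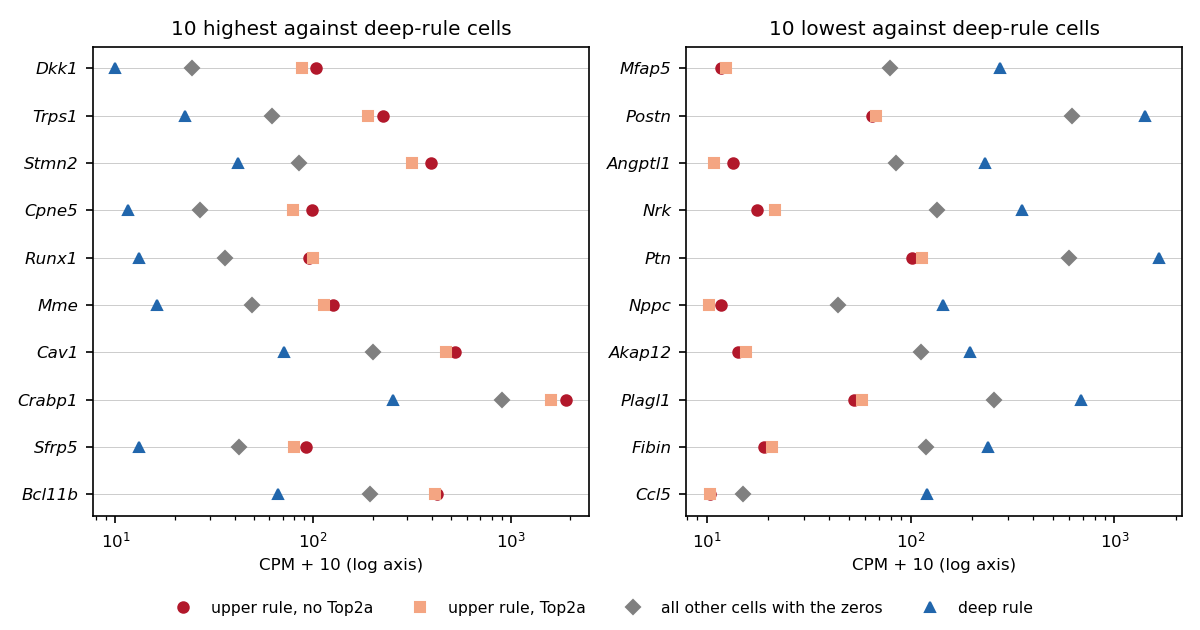
Levels (CPM + 10, log axis) of the 10 genes highest and the 10 lowest in members against deep-rule cells at E16.5, with members shown without Top2a (dark red circles) and with Top2a (orange squares), the reference (grey diamonds) and deep-rule cells (blue triangles). The members of both kinds lie close together in each gene, and the reference lies between them and deep-rule cells.

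On the lower side, Mfap5, a microfibril protein of deep fascia-like fibroblasts, was at 2.08 CPM in members and 264 CPM in deep-rule cells (log2 difference -4.51, -4.73 to -4.27). It had a UMI in 2.05% of members and 41.0% of deep-rule cells, 1 of which held 28.6% of the UMIs there. Postn, the matricellular protein periostin, was at 56.4 and 1409 CPM (-4.42, -4.54 to -4.29), found in 36.1% and 95.1% of cells. Ptn, the heparin-binding growth factor pleiotrophin, was at 98.5 and 1653 CPM (-3.94, -4.05 to -3.83). Plagl1, an imprinted growth regulator, was at 45.4 and 676 CPM (-3.63, -3.79 to -3.47). Angptl1, a secreted angiopoietin-like protein, was at 2.08 and 223 CPM (-4.27, -4.51 to -4.02) and Nrk, a kinase of embryonic mesenchyme, at 9.80 and 340 CPM (-4.14, -4.36 to -3.92). Angptl1 was found in 75.4% and Nrk in 77.0% of deep-rule cells. Ccl5 was also among the 10 lowest genes, but all of its 70 deep-rule UMIs came from 1 cell.

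Of 15 Wnt feedback and target genes 12 were measured, 7 were higher in members than in deep-rule cells and 0 were lower, with a median log2 difference of 1.54 where all genes had 0.07. The score itself held Wif1, an inhibitor of this pathway, and Wisp1, which is named for its induction by Wnt1. Wnt genes are therefore not independent of how the members were chosen. Lef1 (chr3:131110471-131224356, plus strand) was at 112 CPM in members, 28.9 CPM in the reference and 9.44 CPM in deep-rule cells (2.65, 1.99 to 3.18). Nkd1, an intracellular Wnt inhibitor (chr8:88521354-88594884, plus strand), was at 274, 87.1 and 45.6 CPM (2.35, 1.91 to 2.81). Axin2, a scaffold of the β-catenin destruction complex, was at 71.3, 33.8 and 14.2 CPM (1.75, 1.14 to 2.31). Sp5, a zinc finger Wnt target, was at 35.9, 13.2 and 1.57 CPM. Nkd2 at 59.9 and 11.0 CPM and Kremen1, a Dkk1 receptor, at 31.5 and 6.29 CPM were the remaining called members with deep UMIs. Tcf7 was at 33.1 CPM in members and had 0 deep-rule UMIs, at least 7.02-fold higher. The gene of β-catenin itself, Ctnnb1, was at 207, 186 and 195 CPM and differed by 0.08 (log2) from deep-rule cells.

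Secreted Wnt inhibitors did not move as a group. Of 8 measured, Dkk1 was higher in members, and 3 were lower. Sfrp2 was at 54.6 CPM in members and 423 CPM in deep-rule cells (-2.75), Dkk2 at 5.40 and 69.2 CPM (-2.36) and Sfrp1 at 8.97 and 67.6 CPM (-2.03). The median of the list was 0.28. Sfrp5 and the rule's Wif1, inhibitors that were higher in members, are not in this list. Of 17 Wnt ligand and receptor genes, Rspo3, a secreted enhancer of Wnt signalling, was at 133 and 25.2 CPM (2.02), and the ligands Wnt6 at 36.3 and 9.44 CPM (1.25) and Wnt4 at 42.1 and 14.2 CPM (1.11) were higher. Fzd4, a Wnt receptor, was lower at 2.20 and 25.2 CPM (-1.53).

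The 250 bases upstream of each start (RefSeq, GRCm38.p6) were searched on both strands for words that open with CTTTG and close with AA, AT, TA or TT, letters that LEF and TCF proteins are known to bind. At least 1 of these was found in 4874 of 32851 mouse promoters of this length (14.8%), and in at least 1 promoter of 4527 of 27025 genes (16.8%). The sets below are counted by gene. Of the 10 genes highest against deep-rule cells 8 had a promoter in the table and 2 held a match, Dkk1 and Bcl11b. Of the 7 Wnt feedback genes that were higher, 6 had a promoter and 2 held a match, Lef1, in 1 of its 4 promoters, and Sp5. The Dkk1 and Sp5 windows, each with 2 matches, are shown with the matches in capitals, since the genes differed by at least 18.1-fold and by 1.99 on the log2 scale. Both are written 5′ to 3′ on the strand of the gene, Dkk1 from chr19:30549497-30549746 (minus strand, matches starting 117 and 98 bases before the start) and Sp5 from chr2:70474673-70474922 (plus strand, 222 and 104 bases before the start).
Dkk1: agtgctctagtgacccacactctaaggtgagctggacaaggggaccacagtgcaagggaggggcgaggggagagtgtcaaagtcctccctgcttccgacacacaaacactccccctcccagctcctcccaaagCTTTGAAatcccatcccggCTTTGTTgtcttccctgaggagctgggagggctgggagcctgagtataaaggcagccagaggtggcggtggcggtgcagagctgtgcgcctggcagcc
Sp5: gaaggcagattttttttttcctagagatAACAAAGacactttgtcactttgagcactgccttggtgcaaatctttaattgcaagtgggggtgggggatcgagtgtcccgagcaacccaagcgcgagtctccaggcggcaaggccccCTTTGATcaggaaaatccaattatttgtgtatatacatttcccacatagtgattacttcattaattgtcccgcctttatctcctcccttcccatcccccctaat
The GENCODE start of Dkk1 lies inside its window, 169 bases of which belong to the GENCODE gene, matches included, so that distances hold for the RefSeq start. The matches are a description of these letters and no binding was measured.

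Genes of the reticular and hypodermal dermis lay on the deep side. Of 14 measured, 0 were higher and 8 were lower in members, with a median log2 difference of -1.45. Dlk1, a secreted and membrane Notch-like protein of fat progenitors, was at 1122 CPM in members, 3760 CPM in the reference and 7829 CPM in deep-rule cells (-2.79, -2.84 to -2.75). Mest, an imprinted mesodermal gene, was at 159, 716 and 1619 CPM (-3.27, -3.37 to -3.17). Cd34, a surface sialomucin, was at 56.2, 140 and 271 CPM (-2.08). The list held Dcn too, the proteoglycan decorin, which was at 2438, 2479 and 2772 CPM (-0.18). Dlk1, Mest and Plagl1 are imprinted, and so are the growth factor Igf2, at 469 and 3038 CPM (-2.67, -2.74 to -2.60), and the cell cycle inhibitor Cdkn1c, at 986 and 4659 CPM (-2.23, -2.29 to -2.17). These imprinted genes were put side by side after their values were seen, and the imprinted gene Nnat, at 27.7 and 12.6 CPM (0.74, 0.11 to 1.30), was not lower.

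The growth factor genes of the Tgfb, Pdgf and Igf families had 0 of 21 measured genes higher and 12 lower. Among them were several Igf-binding proteins, such as Igfbp4 at 33.6 CPM in members and 341 CPM in deep-rule cells (-3.01, -3.22 to -2.80). Igfbp6, at 1.37 and 105 CPM, had 41.8% of its deep-rule UMIs in 1 cell. Tgfbi, also of the 12, was at -0.91 without 1 deep-rule cell. Of 8 Notch genes 4 were lower and 0 were higher, and of the 4 Heyl was at -0.99 without 1 deep-rule cell. Of 12 Fgf pathway genes 3 were higher, led by the receptor Fgfr1 at 497 and 187 CPM (1.36), with the Fgf response genes Etv4 and Etv5. Etv4 was at 10.3 CPM with 0 deep-rule UMIs, at least 2.19-fold higher. Of 17 Bmp genes 4 were higher and 1 was lower (Bmp3), and the median of 0.07 was that of all genes. The higher ones were the ligand Bmp4 at 61.8 and 12.6 CPM (1.67, 1.04 to 2.22), its extracellular inhibitor Nog at 22.4 and 1.57 CPM (1.48) and the Bmp response genes Id1 at 235 and 64.5 CPM (1.72) and Id2 at 272 and 127 CPM (1.04).

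**Figure D2:**
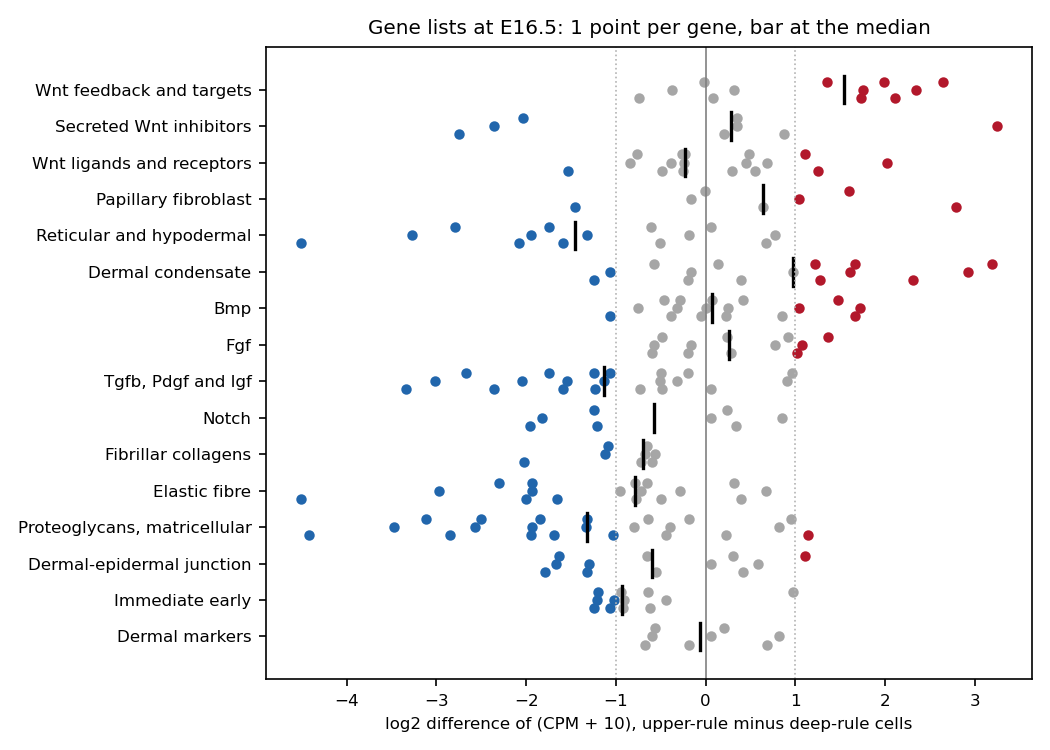
Log2 difference of (CPM + 10), members minus deep-rule cells, with 1 point for each measured gene of a list, a black bar at the list's median and dotted lines at 2-fold. Red and blue points are genes called higher and lower: 7 of 12 Wnt feedback genes are red, while 13 of 22 proteoglycan and matricellular genes are blue.

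Of 22 proteoglycan and matricellular genes 13 were lower and 1 was higher, with a median of -1.32. Of the 13, Bgn was at -0.97 without 1 deep-rule cell. Ogn, the small proteoglycan osteoglycin, was at 15.9 CPM in members and 277 CPM in deep-rule cells (-3.47, -3.70 to -3.23), and Vcan, versican, at 75.8 and 500 CPM (-2.57). Fn1, fibronectin, was at 168 and 669 CPM (-1.93). The gene that was higher was Has2, a hyaluronan synthase, at 22.4 and 4.72 CPM (1.14). Lum, lumican, was at 2674 and 1513 CPM, 0.82 (0.73 to 0.91), under the 2-fold limit. Of 17 elastic fibre genes 7 were lower, such as Eln, elastin, at 116 and 469 CPM (-1.93) and the crosslinking enzyme Loxl1 at 30.0 and 304 CPM (-2.97).

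Among fibrillar collagens the abundant ones differed less than the minor ones. Col1a1 was at 6592 CPM in members and 10012 CPM in deep-rule cells (-0.60, -0.64 to -0.57) and Col3a1 at 6879 and 10165 CPM (-0.56, -0.60 to -0.53). Of 8 measured 3 passed 2-fold, Col5a1 (-1.12), Col11a1 (-2.02) and Col27a1 (-1.09), each lower in members. Without the deep-rule cell with most Col27a1 UMIs that gene was at -0.99. Of 15 other collagens, Col14a1, a fibril-associated collagen, was at 33.3 and 344 CPM (-3.03, -3.24 to -2.82) and Col12a1 at 70.1 and 518 CPM (-2.72). Col7a1, the collagen that anchors the epidermis to the dermis, went the other way at 139 and 42.5 CPM (1.50, 1.05 to 1.97), and so did Col8a1 (1.28). In the dermal-epidermal junction list 5 of 12 genes were lower, the laminins Lama4, Lamb1 and Lamc1 and the nidogens Nid1 and Nid2. Only Frem1, a protein of that junction, was higher, at 45.4 and 15.7 CPM (1.11).

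Transcription factors of the dermis were split, with 6 of 31 higher and 7 lower in members against deep-rule cells. Beside Runx1 the higher group held Zeb2 at 577 and 178 CPM (1.65, 1.39 to 1.91), Irx1 at 409 and 134 CPM (1.54), Prrx2 at 277 and 99.1 CPM (1.39), Runx2 at 33.8 and 3.15 CPM (1.74) and Sox11 (1.08). Among members without Top2a, Sox11 was at 301 CPM in the condensate-like cells described below and at 42.2 CPM in the others. In the lower group were Zeb1 (-1.88), Nfib at 171 and 632 CPM (-1.83, -1.97 to -1.68), Ebf1 at 174 and 595 CPM (-1.72, -1.87 to -1.56) and Osr2 at 47.2 and 156 CPM (-1.54), with Klf2 (-1.74), Klf4 (-1.69) and Nfia (-1.09, and -0.98 without 1 deep-rule cell). The paralogs Zeb1 and Zeb2, repressors best known from epithelial-to-mesenchymal transition, thus differed in opposite directions. En1, a marker of the dermal lineage of the back, was at 71.6 and 64.5 CPM. The axon guidance and adhesion list was also split, with 6 of 32 genes higher and 5 lower. Robo2, a Slit receptor, was at 226 and 42.5 CPM (2.17, 1.71 to 2.64) and Efna5, an ephrin, at 221 and 44.0 CPM (2.09, 1.65 to 2.56), while Slit2 was lower (-2.26) and Sema3c, a semaphorin, was at 1.48 and 123 CPM (-3.53).

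Immediate early genes, which respond to dissociation as well as to signals in tissue, summed to 2142 CPM in members, 3029 CPM in the reference and 4047 CPM in deep-rule cells. Of 12 measured 5 were lower in members (median -0.93), of which Atf3 was at -0.84 and Ier3 at -0.91 without 1 deep-rule cell. Their part in the other differences was not tested. Of 7 measured pericyte markers 4 were lower in members than in deep-rule cells, and the part of pericyte RNA was not tested either. Of the other lists, 1 of 10 hedgehog genes (Ptch1) was higher and 0 were lower. Matrix-degrading enzymes and their inhibitors had 3 of 19 genes higher and 4 lower, of which Adamts5 was at -0.97 without 1 deep-rule cell. Adipogenic genes had 0 of 10 higher and 3 lower, cell cycle exit and D-type cyclin genes 2 of 11 higher and 2 lower, and proliferation genes 3 of 20 higher and 0 lower. Parathyroid and calcium signalling genes, apart from Pth1r of the rule, had 0 of 6 called. With a limit of 2-fold, 2.31% of all measured genes were higher and 3.18% lower, so single calls in a list are near that background.

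Against the whole reference fewer genes passed, 56 of 11942 higher (0.469%) and 223 lower (1.87%). Stmn2 was highest at 343 and 74.6 CPM (2.06, 1.98 to 2.15), found in 58.3% of members and 22.5% of reference cells. Dkk1 at 85.3 and 14.5 CPM (1.96, 1.83 to 2.09), Trps1 at 196 and 51.9 CPM (1.74), Lef1 at 112 and 28.9 CPM (1.64, 1.52 to 1.76) and Nkd1 at 274 and 87.1 CPM (1.55, 1.47 to 1.63) followed, with Cpne5, Aqp1, Elmo1, Rspo3 and Runx1. The upper side was therefore led by many of the genes that led it against deep-rule cells. These comparisons are not independent, since deep-rule cells are part of the reference. The lower side mixed deep dermal genes with genes of other cells: Postn was at 56.4 and 607 CPM (-3.22), while Rgs5, a pericyte gene, was at 5.82 and 140 CPM (-3.25), and Kcnj8 and Cox4i2, also of pericytes, were among the 10 lowest. Of 19 reticular and hypodermal genes 10 were lower and 0 higher, and of 14 Wnt feedback genes Lef1, Nkd1 and Tcf7 were higher and 0 were lower. With the reference limited to its 935 collagen-rich cells, 60 genes were higher, 49 of them among the 56, and 152 were lower, 126 of them among the 223.

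The comparison with the reference was also made apart by Top2a. Without Top2a, 72 of 10714 genes (0.672%) were higher and 249 (2.32%) lower in members than in reference cells without Top2a. With Top2a on both sides, 50 of 10771 (0.464%) were higher and 180 (1.67%) lower. Dkk1 was at 93.4 CPM in members without Top2a and 78.0 CPM in those with it, Lef1 at 119 and 105 CPM, and Stmn2 at 386 and 305 CPM. Against deep-rule cells without Top2a, 7 of 11 Wnt feedback genes were higher and 0 lower (median 1.70, all genes 0.08) and 11 of 19 proteoglycan and matricellular genes were lower, where 3.70% of 9220 genes were higher and 3.31% lower. A Top2a UMI was found in 45.4% of members and 44.6% of the reference, and after thinning to 3500 UMIs in 32.5% (30.2 to 34.8) and 29.7% (27.1 to 32.3), intervals that overlap. In deep-rule cells the thinned share was 23.0% (13.2 to 35.5), whose interval also overlaps that of the members.

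Within the members, cells with Top2a differed from those without it in genes of the cell cycle. Of 10600 genes 234 were higher (2.21%) and 6 lower (0.0566%). The rule's split used Top2a, so the cell cycle genes are a description. The replication-dependent histone Hist1h2ap was at 2315 CPM with Top2a and 81.7 CPM without (4.66, 4.56 to 4.77), and Ube2c, a ubiquitin carrier of mitotic exit, at 563 and 39.4 CPM (3.53, 3.40 to 3.67). The 6 lower genes were 4 globin genes, Alas2 of red cells and Hist1h2bc, a histone whose mRNA is polyadenylated and which was at 41.8 and 108 CPM (-1.18, -1.33 to -1.03). Of the genes of fibroblast type measured here none was called: 0 of 12 Wnt feedback genes, 0 of 7 papillary genes, 0 of 8 fibrillar collagens, 0 of 22 proteoglycan and matricellular genes and 0 of 31 dermal transcription factors. In the reticular list Acta2, smooth muscle actin, was called higher, at 53.4 CPM with Top2a and 20.5 CPM without. However, 1 cell held 361 of the 474 Acta2 UMIs with Top2a, and without it the level was 12.8 CPM (-0.42, -0.63 to -0.20). Of the 6 lower genes Alas2, Hba-a2 and Hbb-bs were under 2-fold without 1 cell.

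The score itself ordered further genes. Over the 10 steps of U - D from -3 to 6, each with at least 20 cells with the 5 zeros, 6623 genes had at least 500 UMIs. The level increased at every step (Spearman's rho of 1) in 41 of them and decreased at every step in 51. Steps share a library and cells of low U - D include other cell types, so these are descriptions. Dkk1 went from 0 CPM at step -3 through 6.27 CPM at step 0 to 160 CPM at step 6, and Lef1 from 3.89 through 20.7 to 171 CPM. Crabp1 went from 229 through 649 to 2033 CPM, with most of its increase below the limit of the rule. In the other direction Mfap5 went from 264 through 56.8 to 0.964 CPM and Col14a1 from 385 through 151 to 18.3 CPM. Cells just inside the limit (492 at step 3) and just outside it (332 at step 2) differed by less than 2-fold in these genes. Dkk1 was at 47.0 and 33.2 CPM, Lef1 at 71.2 and 48.3 CPM and Mfap5 at 2.89 and 4.71 CPM. Ogn, another of the falling genes, differed more, at 24.6 and 62.7 CPM. The members are thus the upper end of a range, and 606, 402 and 111 of them stood at steps 4, 5 and 6.

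**Figure D3:**
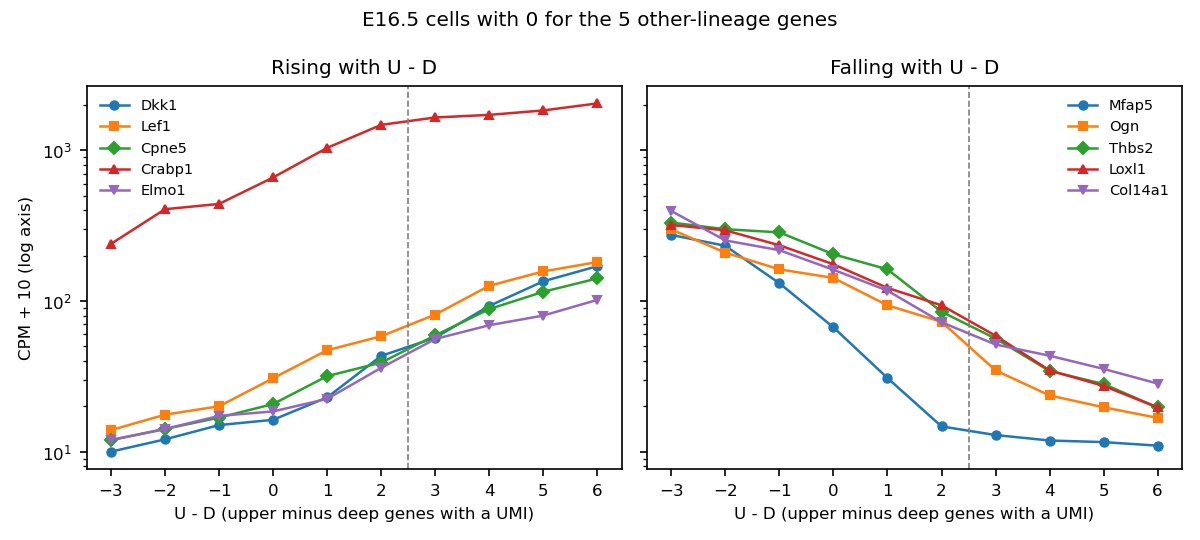
Level (CPM + 10, log axis) at each value of U - D from -3 to 6 for the 5 genes with the largest even increase (left) and the 5 with the largest even decrease (right) among E16.5 cells with the 5 zeros, with a dashed line at the limit of the rule. Dkk1 goes from 0 to 160 CPM and Mfap5 from 264 to 0.964 CPM, with no jump at the line in either. Ogn drops across the line, from 62.7 to 24.6 CPM.

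The 880 members without Top2a were grouped by their own variable genes into 7 sub-clusters, whose leading genes describe them and are not results. Sub-cluster 1 (233 cells, 26.5%) was led by Kcnk2, Elmo1, Stmn2, Col8a1 and Efnb2, and had Lef1 at 200 CPM, Dkk1 at 155 CPM and Nkd1 at 492 CPM. Sub-cluster 3 (160 cells, 18.2%) was led by Mgst1, Pf4, Kitl, Col12a1 and Ccdc80 and had the opposite profile, with Lef1 at 30.3 CPM, Dkk1 at 19.3 CPM, Col1a1 at 12002 CPM and Igf2 at 1008 CPM. Its Dpt level, 299 CPM, and its mean U - D, 3.52 against 4.48 in sub-cluster 1, placed it nearest to the limit of the rule. The members therefore held a Wnt-high and a collagen-high end, with Col1a1 at 4025 CPM and Igf2 at 165 CPM in sub-cluster 1. Pf4, a chemokine gene of platelets and macrophages, was found in 11.9% of the cells of sub-cluster 3 and 9.17% of the others, so its level rests on few cells.

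Sub-cluster 5 (107 cells, 12.2%) was led by Foxd1, Cdkn1a, Bmp4, Sox2 and Plk2, among them 3 of the condensate markers, and is called dermal condensate-like. Bmp4 was at 305 CPM there, Trps1 at 469 CPM, Cpne5 at 220 CPM and Ptch1, a receptor and target of hedgehog signalling, at 219 CPM, while Col1a1 was at 3532 CPM and Lum at 1616 CPM. Lef1 at 221 CPM and Dkk1 at 157 CPM were near their levels in sub-cluster 1, but Mfap4, a deep gene of the rule, was at 454 CPM and Igf1 at 265 CPM. Sox2, a factor of the condensate of some hair types, had a UMI in 21.5% of its cells and in 0.259% of the other members without Top2a. Over all members Sox2 was found in 2.73% (1.99 to 3.65), in the reference in 2.66% (1.84 to 3.71) and in keratinocytes in 3.73%, a share at background. Sox18, which other condensate cells carry, was required to be 0 by the rule, so that part of the condensate was left out by construction. The condensate markers counted per cell were Sox2, Bmp3, Bmp4, Foxd1, Prdm1, Cpne5, Trps1 and Heyl. Of these, 0 were found in 12.4% of members, 1 in 36.3% and 2 in 32.2%. In a longer list of 15 condensate genes, 7 were higher than in deep-rule cells and 2 lower (Bmp3 and Heyl). The 2 lower genes were at -0.86 and -0.99 without 1 deep-rule cell. Ptch1 (94.1 and 11.0 CPM, 2.31, 1.67 to 2.85) and Foxd1 (25.4 and 1.57 CPM, 1.61) were among the 7.

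Sub-cluster 2 (163 cells, 18.5%) was led by Cenpa, Ccnb2, Cdc20, Birc5 and Cdca3, genes of mitosis, although its cells had no Top2a UMI. Sub-cluster 6 (79 cells, 8.98%) held Myog, Actc1 and Tnnt2 from few cells, Myog in 2.53% of them, followed by Slfn9 and the replication gene Rrm2 in 69.6%. Absence of a Top2a UMI is therefore not absence of cycling. Sub-cluster 4 (131 cells, 14.9%) was led by the keratinocyte genes Krt17, Perp, Krt15, Sfn and Krtdap, with 3 genes called higher and 47 lower than in the rest, and Krt15 had a UMI in 44.3% of its cells and 47.0% of the others. Sub-cluster 7 (7 cells) was led by globins, with Hbb-bs at 187582 CPM. These 4 groups are left without a cell type name.

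**Figure D4:**
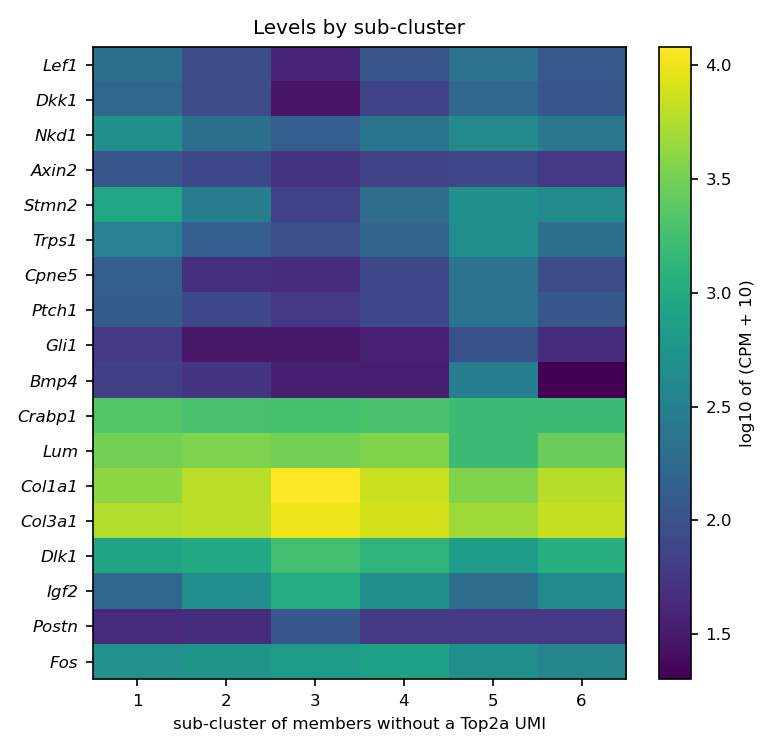
Levels (log10 of CPM + 10, colour scale) of 18 genes in sub-clusters 1 to 6 of the members without Top2a, with sub-cluster 7 of 7 globin-rich cells left out. Lef1, Dkk1 and Nkd1 are high in sub-clusters 1 and 5 and low in sub-cluster 3, where Col1a1 reaches 12002 CPM, and Bmp4 is highest in sub-cluster 5.

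The same rule found 461 cells at E13.5 (9.41% of those with the 5 zeros) and 1013 at P0 (37.8%), of which 207 and 729 had no Top2a. These shares depend on the sampling and digestion of single libraries. Against E13.5 cells without Top2a, 229 of 9709 genes were higher at E16.5 (2.36%) and 302 lower (3.11%). Cav1 was at 511 CPM at E16.5 and 11.9 CPM at E13.5 (4.57, 4.22 to 4.89), and Mef2c, a transcription factor of mesoderm, at 288 and 27.9 CPM (2.98, 2.68 to 3.27). Lmna, the nuclear lamin known to increase with tissue stiffness, was at 1112 and 141 CPM (2.90, 2.73 to 3.06), and the prolyl hydroxylase subunit P4ha2, which matures collagen, at 344 and 30.0 CPM (3.15, 2.86 to 3.44). Lgals7 and Cldn10 were higher too, beside 5 of 9 keratinocyte markers. Fos was at 557 and 34.1 CPM (3.68, 3.40 to 3.96) and Junb at 177 and 4.65 CPM (3.67, 3.30 to 3.95), and 8 of 11 immediate early genes were higher although both stages were digested with trypsin. The part of dissociation and of keratinocyte RNA in these was not tested.

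In the upper cells of E16.5 and E13.5, Col1a1 was at 6741 and 1500 CPM (2.16, 2.11 to 2.21) and Col3a1 at 7018 and 1861 CPM (1.91, 1.86 to 1.96), and 4 of 9 fibrillar and 7 of 14 other collagens were higher, while the cartilage collagens Col2a1 and Col11a1 were lower. Dcn was at 2660 and 674 CPM (1.96, 1.88 to 2.04) and Lum at 3032 and 1032 CPM (1.55, 1.48 to 1.61). Hedgehog targets were higher, Ptch1 at 98.5 and 7.24 CPM (2.65, 2.28 to 2.97) and Gli1 at 38.1 and 5.17 CPM (1.67, 1.28 to 1.98), and so was Trps1 at 216 and 24.8 CPM (2.70). Among the lower genes were Hmga2, a chromatin protein of growing tissue, at 22.8 and 328 CPM (-3.37, -3.55 to -3.18) and Nnat, an imprinted gene, at 29.6 and 554 CPM (-3.83, -3.99 to -3.67). Calb1 had 0 UMIs at E16.5 and 116 CPM at E13.5, at least 308-fold lower with 3 counts as the floor. The embryonic globin Hbb-y was at 18.6 and 6291 CPM (-7.78), and 6 of 6 measured tendon or cartilage markers and 4 of 5 muscle markers were also lower at E16.5. Of the tendon or cartilage markers, Fmod was at -0.91 and Sox9 at -0.90 when the E13.5 cell with most UMIs of the gene was left out.

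Wnt output genes of the upper cells differed less between E13.5 and E16.5. Lef1 was at 119 CPM at E16.5 and 86.9 CPM at E13.5 (0.41, 0.20 to 0.63), Nkd1 at 283 and 249 CPM (0.18, 0.04 to 0.32) and Dkk1 at 93.4 and 49.6 CPM (0.79, 0.53 to 1.06). Of 11 Wnt feedback genes 0 were higher and 1 was lower, Sp5 at 34.3 and 110 CPM (-1.43, -1.66 to -1.21). Crabp1 was at 1896 and 2154 CPM (-0.18, -0.23 to -0.13). By contrast 4 of 7 secreted Wnt inhibitors were lower at E16.5, Dkk2 at 5.40 and 84.3 CPM, Sfrp1 at 6.78 and 124 CPM, Sfrp2 at 56.2 and 195 CPM and Notum at 8.16 and 39.3 CPM. The upper cells of E16.5 thus had a smaller share of UMIs in these inhibitors than those of E13.5.

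Against P0 cells without Top2a, 327 of 9939 genes were higher at E16.5 (3.29%) and 264 lower (2.66%). Igfbp5, an Igf-binding protein, was at 419 CPM, with 13.7 CPM at P0 (4.18, 3.94 to 4.40), and Igf2 at 471 and 25.3 CPM (3.77, 3.56 to 3.98). Crabp1 was at 1896 and 216 CPM (3.08, 2.98 to 3.17), Kitl, the ligand of the Kit receptor of melanocytes, at 110 and 5.54 CPM (2.95, 2.69 to 3.17) and Sfrp5 at 82.1 and 2.89 CPM (2.84, 2.59 to 3.03). Lef1 was at 119 and 45.7 CPM (1.21, 1.02 to 1.40) and Sp5 at 34.3 and 2.41 CPM (1.83, 1.58 to 2.04), the 2 of 11 Wnt feedback genes that were higher, while Nkd1 was at 283 and 296 CPM (-0.06, -0.16 to 0.03) and Dkk1 at 93.4 and 79.4 CPM (0.21, 0.04 to 0.38). Nkd1 and Dkk1 therefore differed by less than 2-fold from E16.5 to either stage, and Lef1 was lowest at P0.

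Among the genes lower at E16.5 than at P0, Hspa1a, a heat shock protein, was at 1.88 and 312 CPM (-4.76, -4.89 to -4.60), and Dusp1, an immediate early phosphatase, at 40.4 and 369 CPM (-2.91, -3.06 to -2.76), with 5 of 13 immediate early genes lower and 1 higher. Digestion with collagenase IV was used at P0 alone, and its part cannot be told apart from stage. Osr2, a transcription factor, was at 43.5 and 895 CPM (-4.08, -4.21 to -3.95) and Cpe, a carboxypeptidase, at 6.65 and 377 CPM (-4.54, -4.71 to -4.36). Eln was at 119 and 610 CPM (-2.27, -2.37 to -2.17), Sparc, a collagen-binding protein, at 4368 and 10151 CPM (-1.21, -1.24 to -1.19) and Col3a1 at 7018 and 14731 CPM (-1.07, -1.09 to -1.05). Lower were 1 of 7 fibrillar collagens, 0 of 15 other collagens, where Col8a1 was higher, and 3 of 16 elastic fibre genes and 7 of 20 proteoglycan and matricellular genes. Col1a1, at 6741 and 9393 CPM (-0.48, -0.50 to -0.46), was under 2-fold. Over the 3 stages Col1a1 and Col3a1 of the upper cells thus stood in the order E13.5, E16.5, P0.

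**Figure D5:**
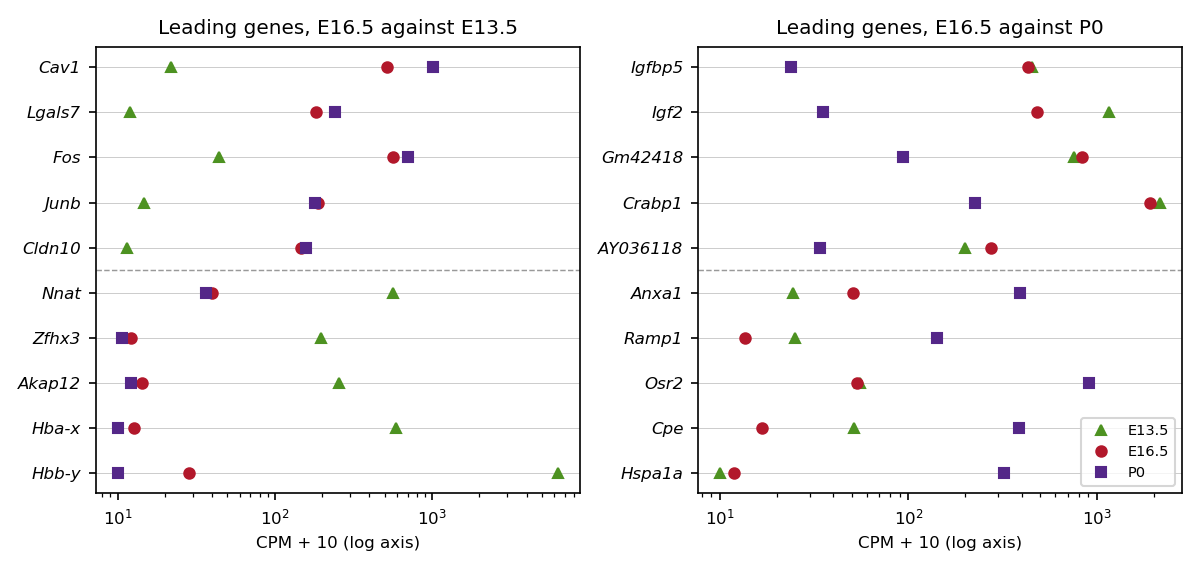
Levels (CPM + 10, log axis) in cells of the upper rule without Top2a at E13.5 (green triangles), E16.5 (red circles) and P0 (purple squares), for the 5 highest and 5 lowest genes at E16.5 against E13.5 (left) and against P0 (right), split by a dashed line. Cav1 and Fos at E16.5 lie near P0 and far above E13.5, whereas Igfbp5 and Crabp1 lie near E13.5 and far above P0.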

How the data were processed

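The authors aligned reads of 10x v2 libraries to mm10 and counted UMIs with Cell Ranger 2.2.0, and deposited 1 table of 19165 genes by 16235 cells of natural log values, ln(1 + x), where x is the UMI count scaled to a cell total of 10000. This formula was found from the values: all 48197283 values above 0 came back as whole UMIs within 0.001. Cells were assigned to libraries by their column prefix.

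The score was computed from recovered UMIs. UMIs were summed per group (CPM), 10 was added, and genes with at least 50 UMIs in both groups together were compared, without mitochondrial genes. Shares of cells are given at full depth, which differs between groups, except where thinning of each cell to 3500 UMIs is named. Doublets were called with Scrublet (rate 0.06) and kept. Sub-clusters came from scanpy 1.11.5 (1000 variable genes, 20 components, 15 neighbours, Leiden resolution 0.5, leidenalg 0.10.2), under Python 3.11.15, numpy 2.4.6 and scipy 1.17.1. The comparison step was tested on simulated data. Named genes were the rule's genes, the 10 highest and 10 lowest of each comparison, genes of the gene and marker lists, the leading genes of sub-clusters and the genes most even over U - D; where a list's names ran past 4, they were chosen after their values were seen. The members, the lists and the rule were chosen with earlier results of these data known. Positions are from GENCODE vM21 (662 of 672 genes matched). Alternatives changed the score, the genes, the depth, the weights, the added CPM and the filters. Columns of no sample numbered 0.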

Additional observations from a re-analysis of the deposited data

Results flagged for a closer look

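At other stages the same rule finds upper and deep cells too (461 and 42 at E13.5, 1013 and 172 at P0), and among the genes of the lists and the 10 highest and 10 lowest against deep-rule cells, the upper minus deep difference was called in opposite directions at E16.5 and at another stage for 7. Of 32 such genes called at both E16.5 and E13.5, 29 had the same direction, and of 99 called at both E16.5 and P0, 95 did. At P0, 6 of 9 Wnt feedback genes were higher and 1 was lower in upper cells. Of 17 reticular and hypodermal genes 13 were lower and 1 higher. Over all 8684 genes measured at P0, 5.72% were higher and 4.09% lower. At E13.5, 3 of 10 Wnt feedback genes were higher and 0 lower. Of 13 reticular and hypodermal genes 1 was higher and 2 were lower, Mfap5 and Igf1. Those 2 were at -0.99 and -0.81 without 1 deep-rule cell. Over all 8368 genes measured at E13.5, 3.17% were higher and 1.52% lower. The difference between stages was not tested, and it can only be read per stage, since each stage is 1 library with few deep-rule cells. Osr2, a transcription factor, had a log2 difference of -1.54 at E16.5 (47.2 CPM in upper and 156 CPM in deep cells) and 2.87 at P0 (823 and 104 CPM). Dkk2, a secreted Wnt inhibitor, had -2.36 at E16.5 (5.40 and 69.2 CPM) and 1.44 at P0 (35.5 and 6.82 CPM). Dpp4 had -1.45 at E16.5 (5.17 and 31.5 CPM) and 1.10 at P0 (37.3 and 12.1 CPM). By level the papillary marker thus stood on the upper side at P0 and on the deep side at E16.5. The deep level at E16.5 rests on 6 of 61 cells, a share whose interval (3.70 to 20.2%) overlaps that of the members (3.96 to 6.14%). Nppc, a natriuretic peptide, had -3.73 at E16.5 (0.950 and 135 CPM) and 1.74 at P0 (26.0 and 0.757 CPM).

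Against E13.5, Vcan had -2.57 at E16.5 (75.8 and 500 CPM) and 1.27 at E13.5 (278 and 109 CPM). Pcolce, which enhances procollagen cleavage, had -1.46 at E16.5 (294 and 823 CPM) and 1.54 at E13.5 (197 and 61.1 CPM). The embryonic globin Hbb-y had 1.31 at E16.5 (54.0 and 15.7 CPM) and -1.09 at E13.5 (4235 and 9049 CPM). Without the cell with most Hbb-y UMIs in the higher group these were 0.29 and -0.68, so that neither reached 2-fold.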

How the results depend on the processing

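No paired analysis was possible because each stage was 1 library and no test was run. The number of members ranged from 1119 to 1943 over other forms of the score and filters, apart from 880 when cells with Top2a were left out. Counts of called genes that moved by over 1.5 times were these: at a limit of 2, 160 higher than deep-rule cells and 3 lower with Top2a; at a limit of 4, 36 higher than the reference (297 higher and 356 lower than deep-rule cells, of which 122 and 181 were among the 247 and 340 called at 3); without Pth1r 36, without Twist2 36 and without Wisp1 37 higher than the reference; with each cell weighted equally, 2 lower with Top2a; with at least 2500 genes per cell, 548 higher than at P0; with at least 200 UMIs per gene, 205 lower than deep-rule cells and 159 lower than at E13.5. With 1 CPM added in place of 10, higher and lower counts were 182 and 737 against the reference, 580 and 625 against deep-rule cells, 411 and 22 with Top2a, 482 and 604 against E13.5 and 1157 and 512 against P0. At resolution 1 there were 12 sub-clusters, and without thinning the Top2a share was 45.4%.

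Signs changed for 2 genes at a limit of 4, where 12 deep-rule cells were left (Igfbp2 0.22 and Jun 0.01), for Perp (0.11) when the score was taken after thinning, and for globins. For Hba-a2, Hbb-bs, Hbb-bt and the median of the erythroid list the difference from deep-rule cells was 0.16, 0.22, 0.09 and 0.19 without Pth1r, 0.33, 0.39, 0.27 and 0.36 without Twist2, 0.10, 0.15, 0.03 and 0.13 without Egfl6, and 3.01, 2.59, 2.94 and 2.77 without Top2a cells. Further alternatives were chosen after seeing the data. Without cells with over 5% of UMIs in erythroid genes Hba-a2 was at 0.09, Hbb-bs at 0.05 and the list at 0.07. Without cells with a Sox2 or Foxd1 UMI they were at 2.48, 2.15, 2.25 (Hbb-bt) and 2.20. With deep-rule cells at D - U of at least 1, Hbb-bt was at 0.07 and 155 genes were higher in members. Each named gene called was also recomputed without the cell with most of its UMIs in the higher group. Against deep-rule cells 4 of 97 higher and 18 of 125 lower calls were lost, and signs changed for Ccl5 (0.05), Hba-a2 (2.56), Hbb-bs (2.16) and Hbb-bt (2.21). With Top2a, 4 of 40 higher and 3 of 6 lower calls were lost, and Acta2 changed sign (-0.42). For members without Top2a, 2 of 110 higher and 11 of 87 lower calls were lost against E13.5 upper cells. Against P0 upper cells 5 of 82 higher and 4 of 80 lower calls were lost. At E13.5, 29 of 49 genes lower in upper than in deep-rule cells were lost. One globin-rich deep-rule cell carries the globin values. The cause of the other changes was not tested. Lists with a small median were not searched for changes of sign, and among the rest no other list changed sign. Of the lists with a small median, that of Wnt ligands and receptors was at -0.23 with all cells and 0.48 without Top2a cells. Depth limits the deep-rule side, where 61 cells held 635714 UMIs and many called genes rest on few of them.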
